A study of Mus musculus with 6 samples.

Results

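Ribosome biogenesis was examined through 36 genes of ribosome assembly, nucleolar organisation and RNA polymerase I in mouse ILC1s, innate lymphocytes related to natural killer (NK) cells. The genes were listed by symbol, with earlier results of these data known, and all 36 were found among the 24628 rows of the deposited expression table. All 36 had at least 1 RPKM (reads divided by gene length and by library depth) in at least 3 of the 6 libraries, the condition under which 12731 rows were tested. The comparison was between 3 libraries titled treatment and 3 libraries titled Rorafl/fl, which carry floxed alleles of Rora, which encodes the nuclear receptor RORα. The series text sets wild-type against conditional knockout (cKO) ILC1s, so by elimination the cKO group is the one titled treatment, and the name Ncr1 added to Rora in their columns is that of the gene for the receptor NKp46. Both groups are labelled lymphocyte. The name of the deposited table places the letters LN before ILC1 without spelling them out. Apart from that, the sources used here give no tissue, age, sort gate, promoter that drives Cre, pooling of animals or deleted part of Rora. Whether replicates are separate animals is not stated, and the p-values then describe the spread of these 6 libraries alone, which may be technical.

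Ribosomes are built in the nucleolus. RNA polymerase I transcribes the precursor of the large ribosomal RNAs, small nucleolar RNAs (snoRNAs) in protein complexes (snoRNPs) guide its chemical modification, and a series of assembly factors fold, cut and export the small and the large subunit. Resting lymphocytes keep this machinery at a low level, and lymphocytes that grow before division raise it, a programme in which the transcription factor MYC and the kinase mTOR are known regulators.

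Reads recovered from the RPKM values numbered 21111333 to 22440170 per cKO library and 20152146 to 21711523 per floxed library. Rora itself was at 5.69, 6.29 and 6.24 RPKM in cKO libraries, against 6.92, 7.41 and 7.91 RPKM in floxed libraries (log2 difference -0.25, SE 0.08, adjusted p = 0.242), and an exact permutation test, two-sided over 20 assignments, gave p = 0.1, the smallest it allows. With voom Rora passed as lower, at -0.29 (adjusted p = 0.0242, and between 0.0242 and 0.464 in all alternatives). Which exons were deleted is not given, so the level of Rora is no check of it. All 17 ILC1 and NK marker genes were tested. In limma 2 of them passed as higher and 3 as lower, against 0.652% and 0.668% of all tested genes. Those that passed were Gzma, Ncr1, Eomes, Cxcr6 and Gzmb. The 17 genes summed to 1502 to 1541 RPKM in cKO and 1567 to 1584 RPKM in floxed libraries. B cell markers, 6 of 8 of them below 1 RPKM in every library and 1 of 2 tested lower, summed to 7.99 to 9.09 RPKM in cKO and 13.7 to 13.96 RPKM in floxed libraries. T cell markers (1 of 7 tested lower) summed to 80.5 to 88.0 RPKM in cKO and 85.9 to 87.4 RPKM in floxed libraries. No other marker list had a member that passed in limma. Voom called 2 ILC1 and NK markers higher and 4 lower, and 2 T cell markers and 1 B cell marker lower. In the other marker lists it called 1 plasma cell and 1 macrophage marker lower and 1 dendritic cell marker higher. Over all tested genes voom called 1.78% higher and 2.41% lower. Macrophage markers summed to 31.4 to 32.9 RPKM in cKO and 37.01 to 41.2 RPKM in floxed libraries, plasma cell markers to 23.2 to 26.7 RPKM in cKO and 29.2 to 31.3 RPKM in floxed libraries, and dendritic cell markers to 64.6 to 71.3 RPKM in cKO and 55.6 to 64.9 RPKM in floxed libraries. Markers of ILC2s and ILC3s summed to 18.9 to 22.7 RPKM in cKO and 17.04 to 18.7 RPKM in floxed libraries, stromal markers to 14.05 to 16.04 RPKM in cKO and 17.5 to 18.0 RPKM in floxed libraries, erythroid markers to 1.61 to 2.57 RPKM in cKO and 2.33 to 6.24 RPKM in floxed libraries, and neutrophil markers to 0.161 to 0.984 RPKM in cKO and 0.559 to 1.65 RPKM in floxed libraries. No marker with a row was at 0 in all 6 libraries. The cKO libraries also held less Xist (9.43 ± 0.394 RPKM in cKO and 31.9 ± 3.16 RPKM in floxed libraries), more of the Y-linked Ddx3y (20.8 ± 0.438 RPKM in cKO and 10.4 ± 0.498 RPKM in floxed libraries, SD, n = 3 each) and more RNA of 18 of 24 tested immediate-early genes (median log2 difference 0.52). The part of these in the results on ribosome biogenesis was not tested.

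None of the 36 ribosome biogenesis genes passed the test between cKO and floxed libraries in limma, and most lay slightly lower in the cKO group. The test was limma, with its prior variance following the mean, on log2(RPKM + 1) of all 12731 genes, and passing meant a p under 0.05 after Benjamini-Hochberg adjustment. By this rule 83 genes (0.652% of those tested) were higher and 85 (0.668%) lower in cKO, or 1.32% in either direction, against 110 and 73 genes after median-ratio scaling of the libraries, so that a count of 0 among 36 is near the background. At an unadjusted p under 0.05 limma placed 13 of the 36 lower and 0 higher, against 8.6% and 5.55% of all tested genes. With limma voom on the recovered reads 4 passed as lower (Dkc1, Nop2, Heatr1 and Mybbp1a) and 0 as higher, against 2.41% and 1.78% of all tested genes, or 4.19% in either direction. With at least 5 RPKM required in at least 3 libraries, limma tested 7631 genes and called 1 of the 36 lower (Dkc1) and 0 higher, against 1.43% and 1.49% of those genes, or 2.92% in either direction. In bulk RNA, fewer cells that hold an RNA and less of it per cell cannot be told apart.

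The log2 difference, cKO minus floxed, was below 0 in 31 of the 36 genes, against 57.3% of all tested genes, and ran from -0.37 to 0.04. Its median was -0.11 over the 36 genes and -0.03 over all tested genes. With each library rescaled by the median ratio of its genes these medians were -0.08 and 0.00, and 29 of the 36 genes lay below 0, against 49.7% of all tested genes. In 15 genes all 3 cKO values lay under all 3 floxed values, against 12.7% of tested genes, and in 0 genes did they lie above, against 7.61%. After median-ratio scaling 10 of the 36 lay under, against 9.7% of tested genes. The genes whose groups overlapped only after this scaling were Nhp2, Nolc1, Rrp1b, Nop16 and Noc3l. The mean cKO level was 72.6% to 103.7% of the floxed level and was under 90% of it in 15 genes. The 95% interval of the difference lay within 0.5 of 0 in 33 of the 36 genes, on the log2(RPKM + 1) scale, which understates differences of low genes.

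**Figure D1:**
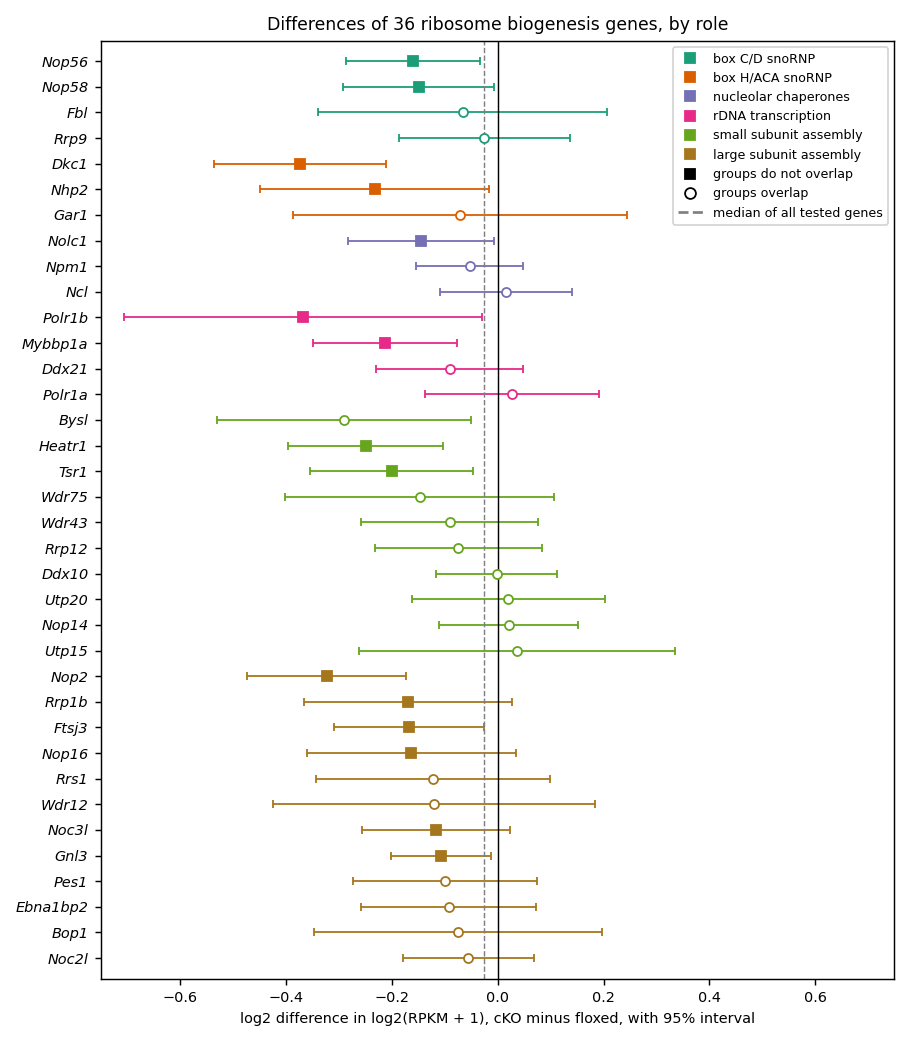
Log2 difference of each of the 36 genes, cKO minus floxed, in log2(RPKM + 1), with its 95% confidence interval from limma on 3 cKO and 3 floxed libraries. Colours are roles, and the dashed line is the median of all tested genes at -0.03. Filled squares mark the 15 genes whose groups do not overlap in values that were not rescaled by the median ratio. All 15 filled squares lie left of 0, and 13 of the 36 intervals leave out 0.

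Levels per gene length spanned more than the differences between groups did. Npm1 (mean 409.5 RPKM over 6 libraries), Ncl (237 RPKM) and Ddx21 (114 RPKM) were the 3 genes over 100 RPKM. Wdr75 (4.56 RPKM), Polr1b (3.50 RPKM) and Wdr12 (1.61 RPKM) were the 3 under 5 RPKM. The median of the 36 means was 24.3 RPKM, and 80.2% of tested genes had a lower mean than that. Neighbours in this order often overlapped: Noc2l was at 89.7, 92.4 and 93.6 RPKM, Nop14 at 91.7, 94.1 and 92.3 RPKM and Ddx10 at 90.8, 90.04 and 88.3 RPKM in the cKO libraries. Gene lengths in the table ran from 1146 to 11955 bases, so a gene with long annotated exons, such as Wdr12, has a lower RPKM for the same number of reads. The 36 genes lie on 16 chromosomes in the coordinates of the deposited table. Among them are Dkc1 at chrX:75095854-75109777, Nop2 at chr6:125131909-125144753, Heatr1 at chr13:12395398-12438677 and Mybbp1a at chr11:72441355-72451768, all on the plus strand. By the exons given there, 5 genes share more than 5% of their exon bases with another gene on either strand. These are Tsr1, Noc2l, Bysl, Nop56 and Nop14, where reads could be split or miscounted. Each gene rested on 292 to 54860 reads per library. The coefficient of variation between the 3 libraries of a group had a median of 4.59% in cKO and 6.48% in floxed libraries, and reached 21.2% for Polr1b in cKO libraries.

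**Figure D2:**
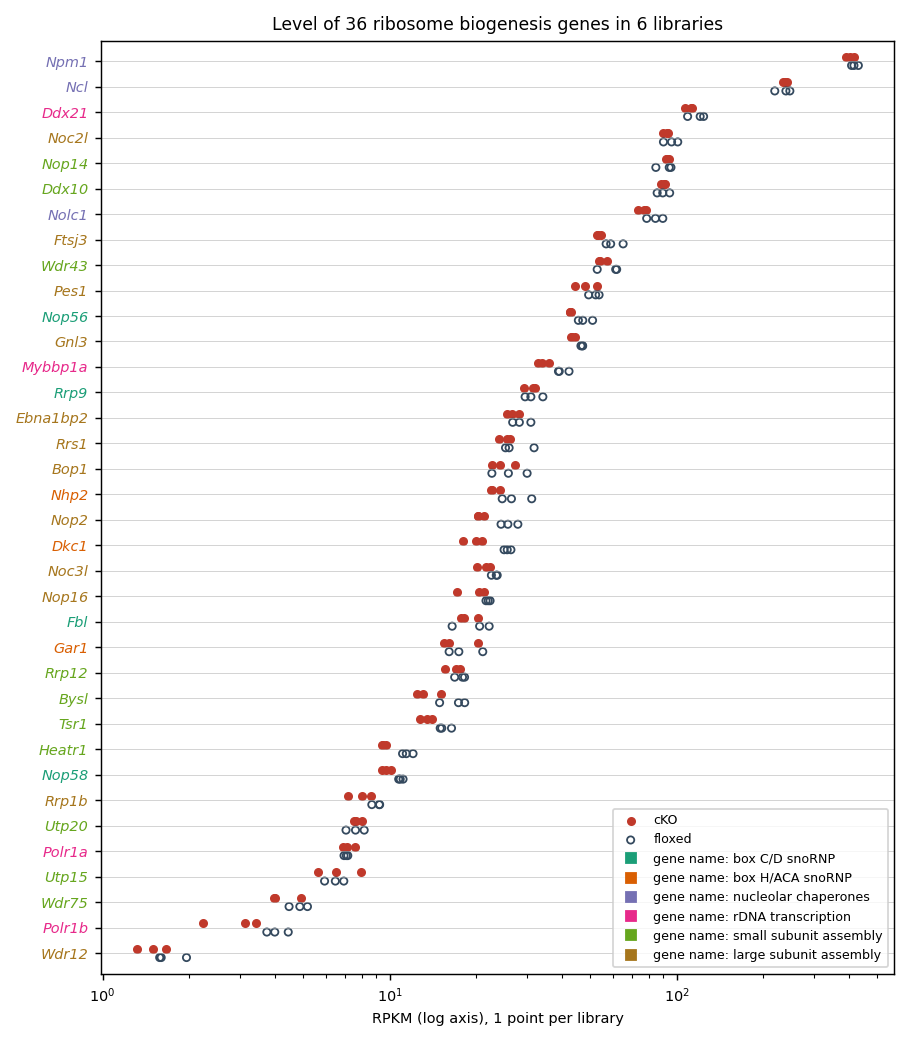
RPKM of the 36 genes on a log axis, ordered by mean level, with 1 point per library: filled for the 3 cKO libraries, open for the 3 floxed libraries. The order runs from Wdr12 at a mean of 1.61 RPKM to Npm1 at 409.5 RPKM, and the cKO and floxed points of most genes lie close together or overlap.

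Individual libraries within a group did not sit at the same height. Relative to each gene's mean over 6 libraries, the median deviation of the 36 genes in log2(RPKM + 1) was -0.07, -0.08 and -0.03 in cKO replicates 1, 2 and 3, and 0.07, -0.01 and 0.07 in floxed replicates 1, 2 and 3. On these values, which were not rescaled, floxed replicate 2 lay between the cKO libraries and the other floxed libraries. Median-ratio scaling divides the cKO libraries by 0.992 to 0.996 and the floxed libraries by 1.014 to 1.021. That shift is of the size of the gap between floxed replicate 2 and cKO replicate 3, so their order depends on the scaling. A gene's lowest value was in a cKO library for 29 of the 36 genes, and its highest in a floxed library for 34. The matching shares over all tested genes were not computed, and 57.3% of those genes had a log2 difference below 0. How far 29 and 34 exceed the background is thus not known. Summed over the 36 genes, reads took 0.746 ± 0.00896% of each cKO library and 0.781 ± 0.0292% of each floxed library (SD, n = 3 each). The sums were 7452, 7372 and 7551 RPM (reads scaled to library depth only) in cKO libraries, against 8035, 7478 and 7909 RPM in floxed libraries, and the highest cKO sum exceeded the lowest floxed sum. Without the abundant Npm1 and Ncl they were 3907, 3949 and 4019 RPM in cKO libraries, against 4403, 4155 and 4316 RPM in floxed libraries, and did not overlap. The 2 genes left out had small log2 differences, -0.05 for Npm1 and 0.02 for Ncl. The sums were not computed after median-ratio scaling, which would narrow the gap.

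**Figure D3:**
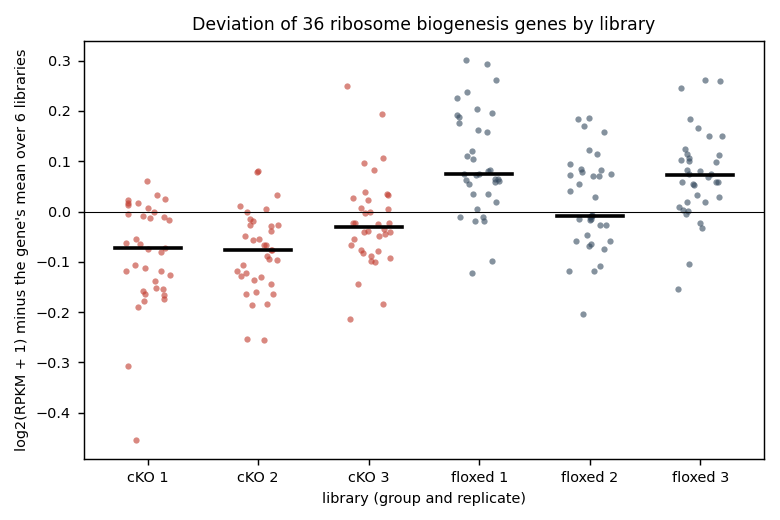
Deviation of each of the 36 genes from its own mean over the 6 libraries, in log2(RPKM + 1), by library, with the median as a bar. The libraries were not rescaled by the median ratio. The medians of the 3 cKO libraries are -0.07, -0.08 and -0.03 and those of the floxed libraries 0.07, -0.01 and 0.07.

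Among the proteins of box H/ACA snoRNPs, which convert uridine to pseudouridine in ribosomal RNA, Dkc1 had the smallest p of all 36 genes. Dkc1 encodes dyskerin, the pseudouridine synthase, which is also part of telomerase. It was at 17.98, 20.02 and 21.03 RPKM in cKO libraries, against 26.5, 25.7 and 25.1 RPKM in floxed libraries. The groups did not overlap and the cKO mean was 76.5% of the floxed mean, with a log2 difference of -0.37 (SE 0.07, 95% interval -0.54 to -0.21). Limma's adjusted p = 0.0658 did not pass, while voom gave -0.39 (adjusted p = 0.00119, and between 0.00119 and 0.183 in all alternatives). With the filter at 5 RPKM limma's adjusted p for Dkc1 was 0.0417. Dkc1 is the only one of the 36 genes on chromosome X, in the same libraries whose Xist differed by -1.65 on the log2 scale. The median over 384 tested X-linked genes, with Xist and its antisense gene Tsix left out, was -0.00.

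Nhp2, which encodes an RNA-binding protein of the same particle, was at 22.5, 22.7 and 24.3 RPKM in cKO libraries, against 31.3, 24.7 and 26.6 RPKM in floxed libraries (log2 difference -0.23, SE 0.09, adjusted p = 0.322), and its groups did not overlap. Floxed replicate 1 was the highest library of Nhp2, and without it the difference was -0.14. After median-ratio scaling the groups of Nhp2 overlapped. Gar1, which encodes a further core protein, was at 15.5, 16.1 and 20.3 RPKM in cKO libraries, against 16.1, 17.4 and 21.1 RPKM in floxed libraries (log2 difference -0.07). The Gar1 groups overlapped, and replicate 3 was the highest in each of them.

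The box C/D snoRNPs, which place methyl groups on the ribose of ribosomal RNA, lay 0.03 to 0.16 below 0 on the log2 scale in all 4 of their genes. Nop56, which encodes a scaffold protein of the particle, was at 42.7, 42.8 and 42.6 RPKM in cKO libraries, against 47.1, 50.95 and 45.5 RPKM in floxed libraries. The cKO values lay closer together than those of any other of the 36 genes in that group, with a coefficient of variation of 0.209%, and all lay below the floxed values (log2 difference -0.16, SE 0.05, adjusted p = 0.259). The partner scaffold Nop58 averaged 9.76 ± 0.347 RPKM in cKO and 10.9 ± 0.194 RPKM in floxed libraries (SD, n = 3 each) and had a similar difference of -0.15 (adjusted p = 0.333). Fbl, the methyltransferase fibrillarin, was at 18.1, 17.7 and 20.4 RPKM in cKO libraries, against 22.2, 16.5 and 20.6 RPKM in floxed libraries. The groups of Fbl overlapped and floxed replicate 2 was the lowest of the 6 libraries, with a log2 difference of -0.07. Rrp9, a protein of the U3 snoRNP that takes part in cutting the precursor, had a difference of -0.03.

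The abundant nucleolar proteins showed small differences. Npm1, which encodes the histone and ribosome chaperone nucleophosmin, was at 416, 388 and 402 RPKM in cKO libraries, against 415, 407 and 429.6 RPKM in floxed libraries (log2 difference -0.05, SE 0.04, adjusted p = 0.65). Ncl, which encodes nucleolin, was at 239, 235 and 242 RPKM in cKO libraries, against 248, 219.7 and 240.3 RPKM in floxed libraries (log2 difference 0.02, SE 0.05, adjusted p = 0.924). In both the groups overlapped, and the 95% interval was -0.15 to 0.05 for Npm1 and -0.11 to 0.14 for Ncl. The sign of Ncl turned with the scaling, at -0.021 after quantile normalization, and without floxed replicate 2, at -0.034. The difference of Npm1 was -0.028 without cKO replicate 2 and -0.032 without floxed replicate 3. Nolc1, a phosphoprotein that binds snoRNPs, was at 73.1, 76.8 and 77.9 RPKM in cKO libraries, against 89.5, 84.4 and 78.6 RPKM in floxed libraries. Its groups were apart by a small gap between cKO replicate 3 and floxed replicate 3 (log2 difference -0.14, SE 0.06, adjusted p = 0.333). That gap closed after median-ratio scaling, and the groups overlapped.

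Of 4 genes of rDNA transcription, 3 lay below 0 and 1 above. Polr1a, the largest catalytic subunit of RNA polymerase I, was at 7.12, 7.59 and 6.90 RPKM in cKO libraries, against 7.15, 7.06 and 6.94 RPKM in floxed libraries, and the groups overlapped (log2 difference 0.03, 95% interval -0.14 to 0.19), and the sign turned without cKO replicate 2, at -0.0067. Polr1b, which encodes the other subunit of the catalytic centre, was at 2.24, 3.44 and 3.15 RPKM in cKO libraries, against 4.44, 3.74 and 3.98 RPKM in floxed libraries and is described because its cKO mean, at 72.6% of the floxed mean, was the lowest such share of the 36, a choice made after its values were seen. The groups did not overlap, but cKO replicate 1 lay far below the other cKO libraries, and the difference of -0.37 had an SE of 0.14 and an adjusted p = 0.317. Without cKO replicate 1 the difference was -0.23 and the share 81.2%, above the 77.8% of Nop2 and the 79.7% of Dkc1 in the same libraries. Whether Polr1a and Polr1b differed from each other in their response was not tested.

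Mybbp1a, which encodes a nucleolar protein that links rDNA transcription with processing, was at 32.9, 34.1 and 36.02 RPKM in cKO libraries, against 38.8, 39.002 and 42.2 RPKM in floxed libraries. The groups of Mybbp1a did not overlap (log2 difference -0.21, SE 0.06, adjusted p = 0.173), and voom gave -0.22 (adjusted p = 0.0187, and between 0.0187 and 0.37 in all alternatives). Ddx21, an RNA helicase that acts in rDNA transcription and rRNA processing, was at 113, 107 and 112 RPKM in cKO libraries, against 124, 109 and 121 RPKM in floxed libraries. Its groups overlapped, floxed replicate 2 lying among the cKO values (log2 difference -0.09, SE 0.06, adjusted p = 0.56), and the difference was -0.05 without floxed replicate 1 and -0.15 without floxed replicate 2.

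Of 10 factors of the small subunit, 7 lay below 0 and 3 above, with a median of -0.08. Heatr1, whose yeast counterpart Utp10 belongs to the complex that assembles first on the precursor, was at 9.44, 9.46 and 9.71 RPKM in cKO libraries, against 11.1, 12.1 and 11.4 RPKM in floxed libraries. The groups were apart (log2 difference -0.25, SE 0.06, adjusted p = 0.145), and voom gave -0.27 (adjusted p = 0.043, and between 0.043 and 0.319 in all alternatives). Tsr1, whose yeast counterpart acts late in small-subunit maturation, was at 12.8, 13.5 and 13.998 RPKM in cKO libraries, against 16.4, 15.2 and 15.01 RPKM in floxed libraries (log2 difference -0.20, SE 0.06, adjusted p = 0.245). The groups of Tsr1 did not overlap, and 32.3% of its exon bases lie antisense to exons of Srr. Bysl, bystin, an assembly factor needed early in mouse development, was at 13.1, 12.5 and 15.2 RPKM in cKO libraries, against 17.4, 14.9 and 18.3 RPKM in floxed libraries. Its groups overlapped between cKO replicate 3 and floxed replicate 2 (log2 difference -0.29, SE 0.10, adjusted p = 0.273).

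The most abundant small-subunit factor, Nop14, was at 91.7, 94.1 and 92.3 RPKM in cKO libraries, against 94.2, 84.6 and 95.6 RPKM in floxed libraries, with overlapping groups and a log2 difference of 0.02. Utp15, a partner of Heatr1 in yeast, was at 6.48, 5.62 and 7.95 RPKM in cKO libraries, against 6.47, 5.94 and 6.93 RPKM in floxed libraries, with overlapping groups and the highest difference of the 36 (0.04, 95% interval -0.26 to 0.33). The sign turned without floxed replicate 2 for Nop14 (-0.034) and Utp15 (-0.013), and without cKO replicate 3 for Utp15 (-0.079). Wdr43 (-0.09) and Wdr75 (-0.15), which belong to the same early complex, Rrp12 (-0.07), the helicase gene Ddx10 (-0.00) and Utp20 (0.02) had overlapping groups.

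All 12 factors of the large subunit lay below 0 in the log2 difference, between -0.32 and -0.06, and their median was -0.12. Nop2, which encodes an rRNA cytosine methyltransferase that is also a marker of growing cells, was at 21.3, 20.3 and 20.3 RPKM in cKO libraries, against 27.98, 24.5 and 25.8 RPKM in floxed libraries. The highest cKO value lay below the lowest floxed value, and the cKO mean was 79.04% of the floxed mean (log2 difference -0.32, SE 0.06, adjusted p = 0.0782). Voom gave -0.34 (adjusted p = 0.014, and between 0.014 and 0.23 in all alternatives). Ftsj3, an RNA methyltransferase, was at 52.6, 54.5 and 53.3 RPKM in cKO libraries, against 65.1, 58.9 and 56.8 RPKM in floxed libraries (log2 difference -0.17, SE 0.06, adjusted p = 0.282). Gnl3, the nucleolar GTPase nucleostemin, was at 43.05, 44.1 and 43.02 RPKM in cKO libraries, against 47.1, 46.4 and 46.96 RPKM in floxed libraries (log2 difference -0.11, SE 0.04, adjusted p = 0.302). In both genes the groups did not overlap, and the floxed values of Gnl3 had the lowest coefficient of variation of the 36 genes in that group, 0.751%.

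Noc2l, the most abundant large-subunit factor and also known as an inhibitor of histone acetyltransferases, was at 89.7, 92.4 and 93.6 RPKM in cKO libraries, against 96.02, 89.97 and 101 RPKM in floxed libraries, with overlapping groups (log2 difference -0.06, SE 0.05, adjusted p = 0.705), and 20.9% of its exon bases lie antisense to exons of Samd11. The difference of Noc2l was -0.10 without floxed replicate 2 and -0.016 without floxed replicate 3. The 3 genes of the PeBoW complex, Pes1 (-0.10), Bop1 (-0.08) and Wdr12 (-0.12), which act together in large-subunit processing, had overlapping groups. Rrp1b (-0.17), Nop16 (-0.16) and Noc3l (-0.12) had groups that did not overlap but intervals that included 0. Their groups overlapped after median-ratio scaling. Rrs1 (-0.12) and Ebna1bp2 (-0.09) had overlapping groups. In all, 23 of the 36 genes had an unadjusted p of at least 0.05, 18 of them below and 5 above 0.

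The other genes of the pathway were read from lists of 152 symbols, of which 146 were tested. In limma 0 were called higher and 0 lower. Before adjustment, 2 above 0 and 17 below 0 had p under 0.05, against 5.55% and 8.6% of all tested genes. Voom called 1 higher and 1 lower, against 1.78% and 2.41% of all tested genes. Of the 146 genes, 105 (71.9%) lay below 0, against 57.3% of all tested genes. Their median log2 difference was -0.06, against -0.03 over all tested genes. Other small-subunit factors had a median of -0.10 over 40 genes and other large-subunit factors a median of -0.08 over 49 genes. Other RNA polymerase I genes were at -0.04 over 13, RNA polymerase III genes at -0.04 over 20, other snoRNP assembly factors at -0.06 over 9 and the RNA exosome at -0.02 over 15. The RNA polymerase I subunit gene Twistnb was at 19.9, 19.04 and 19.9 RPKM in cKO libraries, against 21.8, 22.7 and 24.6 RPKM in floxed libraries, with groups apart (log2 difference -0.22, SE 0.06, adjusted p = 0.187). Cebpz, a large-subunit factor in yeast, was at 38.7, 39.3 and 39.4 RPKM in cKO libraries, against 43.6, 45.2 and 43.1 RPKM in floxed libraries, also with groups apart (log2 difference -0.16, SE 0.04, adjusted p = 0.159). Rcl1, whose yeast counterpart takes part in processing the small-subunit precursor, averaged 4.48 ± 0.534 RPKM in cKO and 6.16 ± 0.590 RPKM in floxed libraries (log2 difference -0.39, SE 0.11, adjusted p = 0.186). The large-subunit factor Brix1 averaged 10.2 ± 0.645 RPKM in cKO and 12.1 ± 0.233 RPKM in floxed libraries (log2 difference -0.22, SE 0.07, adjusted p = 0.206). Both are given with SD and n = 3 per group. The other genes of these lists with the smallest p lay on both sides of 0. Above 0 were Znrd1 of RNA polymerase I (0.20), Mphosph6 of the exosome list (0.13) and Polr3gl of RNA polymerase III (0.13). Below 0 were Naf1 (-0.32), Pih1d1 (-0.20), Exosc5 (-0.39) and Gtf3c4 (-0.27).

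Utp14b, a copy of the small-subunit factor gene Utp14a known for its role in mouse spermatogenesis, had higher values in cKO libraries, at 2.81, 2.84 and 2.61 RPKM in cKO libraries, against 1.73, 1.85 and 1.24 RPKM in floxed libraries. The groups were apart (log2 difference 0.53, SE 0.13, adjusted p = 0.145), and voom gave 0.80 (adjusted p = 0.00248, and between 0.00248 and 0.32 in all alternatives). Of its exon bases 3.18% are shared with Acsl3 on the same strand. The gene that voom called lower was the small-subunit factor Nol6, at 7.74, 8.20 and 8.97 RPKM in cKO libraries, against 11.7, 9.75 and 10.3 RPKM in floxed libraries (log2 difference -0.31, SE 0.09, adjusted p = 0.194), where voom gave -0.35 (adjusted p = 0.0345, and between 0.0345 and 0.402 in all alternatives).

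**Figure D4:**
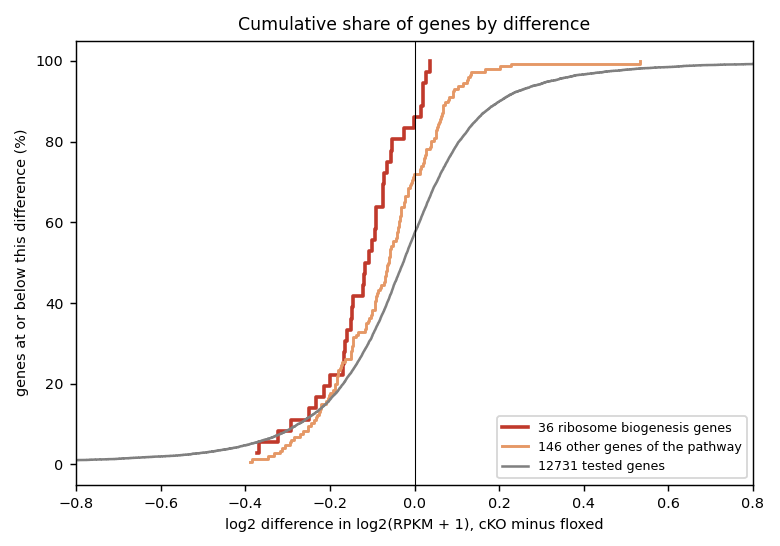
Cumulative share of genes, in %, by log2 difference (cKO minus floxed, log2(RPKM + 1) scale) for the 36 ribosome biogenesis genes, 146 other genes of the pathway and all 12731 tested genes, with values beyond 0.8 on either side not drawn. At 0 the curves stand at 86.1%, 71.9% and 57.3%.

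The MYC network had a median difference above 0. Myc, the factor best known for raising ribosome biogenesis, was at 19.2, 19.4 and 18.8 RPKM in cKO libraries, against 19.4, 18.6 and 21.2 RPKM in floxed libraries, with overlapping groups (log2 difference -0.04, 95% interval -0.19 to 0.10), and the sign turned without floxed replicate 3, at 0.0064. Of 9 tested genes of the network, 0 passed in limma and 0 in voom, and the median was 0.04. Before adjustment p was under 0.05 for 1 gene above 0 and for 0 below it. That 1 gene was Mlx, which pairs with proteins related to MYC and was at 31.5, 32.5 and 33.4 RPKM in cKO libraries, against 29.9, 29.4 and 28.7 RPKM in floxed libraries (log2 difference 0.14, SE 0.05, adjusted p = 0.259). The genes of mTOR control had a median of -0.09 over 15 genes, with 0 passing in limma and 0 in voom. Before adjustment p was under 0.05 for 0 genes above 0 and for 1 below it, Rheb, the GTPase that activates mTOR, which was at 3.60, 3.63 and 3.32 RPKM in cKO libraries, against 4.54, 4.28 and 4.51 RPKM in floxed libraries (log2 difference -0.27, SE 0.08, adjusted p = 0.221).

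MYC and its partner MAX bind the letters CACGTG, the E-box, which read the same on both strands. Promoter windows of 300 bases, from 250 before to 50 after the start of transcription, were taken from RefSeq on GRCm38.p6 and matched 31 of the 36 genes. The E-box was found in 6 of 35 windows (17.1%) of these genes, against 7.15% of all 32851 windows and 10.2% of the windows of tested genes. Counted by gene, 6 of 31 (19.4%) held it, against 12.1% of the 7924 tested genes that had a window by symbol. The 30 bases around it are shown, 5′ to 3′ on the strand of the gene with the E-box in capitals, to give the match in each of the 6 genes.
Nop2: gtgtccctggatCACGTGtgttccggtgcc
Mybbp1a: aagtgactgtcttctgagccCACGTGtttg
Tsr1: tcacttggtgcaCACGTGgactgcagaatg
Pes1: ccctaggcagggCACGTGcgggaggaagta
Wdr43: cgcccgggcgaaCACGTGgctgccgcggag
Utp20: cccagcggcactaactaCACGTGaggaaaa
The stretches lie at chr6:125131811-125131840, chr11:72441347-72441376, chr11:74898092-74898121, chr11:3963965-3963994, chr17:71616220-71616249 and, on the minus strand, chr10:88826765-88826794. The E-box of Nop2 began 60 bases before the start and those of the other 5 genes 3 to 41 bases into the transcript. The log2 differences of these genes were -0.32 for Nop2, -0.21 for Mybbp1a, -0.20 for Tsr1, -0.10 for Pes1, -0.09 for Wdr43 and 0.02 for Utp20, whereas the windows of Dkc1, Heatr1 and Nop56 held no CACGTG. A match describes the letters and no binding was measured.

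Many snoRNAs are released from introns of genes that encode ribosome factors. Annotated snoRNA genes were taken from GENCODE M21 (GRCm38) and gene bounds from the deposited table. By these, 7 of the 36 genes (19.4%) held at least 1 snoRNA gene on their own strand, 21 snoRNA genes in all. Among 9506 tested protein-coding genes the share was 1.85%. Nop56 held 5, Nop58 4, and Ncl, Gnl3 and Wdr43 3 each. Of the 21, 19 had a row in the table and 15 were tested, of which 0 passed in limma and 0 in voom, 3 having an unadjusted p under 0.05. The rows were covered by 0 to 200 reads per library, and of those tested 8 lay above and 7 below 0. Of the 15 tested rows, 7 lie in annotated exon bases of the host, where reads of the snoRNA and of the host transcript cannot be told apart. The libraries were made with an mRNA kit. Whether the reads of the other rows came from the snoRNA or from an unspliced host transcript was not tested.

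Snord57, inside Nop56, and Snord91a, inside Tsr1, had the smallest p of these rows and were chosen after their values were seen. Their genes are printed with the last CTGA, the letters of box D, in capitals.
Snord57: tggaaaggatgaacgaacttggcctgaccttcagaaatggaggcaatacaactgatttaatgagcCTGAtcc
Snord91a: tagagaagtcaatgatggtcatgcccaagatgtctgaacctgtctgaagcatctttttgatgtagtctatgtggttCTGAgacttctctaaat
They lie at chr2:130278016-130278087 and chr11:74905424-74905516 on the plus strand. Snord57 had 200, 134 and 149 reads in cKO libraries, against 115, 109 and 112 reads in floxed libraries, or 124, 88.2 and 93.8 RPKM in cKO libraries, against 73.6, 75.1 and 71.9 RPKM in floxed libraries (log2 difference 0.45, SE 0.12, adjusted p = 0.177). All cKO values lay above all floxed values, opposite to Nop56 in the same libraries. The row lies within annotated exon bases of Nop56, so reads of the snoRNA and of the host transcript cannot be told apart. Snord91a had 9, 14 and 11 reads in cKO libraries, against 28, 35 and 23 reads in floxed libraries (log2 difference -1.24, SE 0.21, adjusted p = 0.0534), and its groups did not overlap either. With the filter at 5 RPKM limma's adjusted p for Snord91a was 0.0328, which passed, and voom's was 0.229, within 0.0328 to 0.229 in all alternatives.

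Genes whose main known product is a set of snoRNAs had a median above 0. Of 9 tested snoRNA host genes, 0 passed in limma, voom called 2 higher and 0 lower, and the median was 0.15. Before adjustment p was under 0.05 for 4 genes above 0 and for 1 below it. Snhg8 was at 68.9, 61.1 and 64.1 RPKM in cKO libraries, against 54.3, 47.5 and 53.8 RPKM in floxed libraries (log2 difference 0.31, SE 0.07, adjusted p = 0.119), and its groups did not overlap. With voom its difference was 0.32 (adjusted p = 0.0491, and between 0.0491 and 0.285 in all alternatives). Of the exon bases of Snhg8, 15.2% are shared with Snora24 on the same strand. The other gene that voom called was Gas5, a host transcript known to build up in growth-arrested cells, at 43.05, 44.3 and 46.9 RPKM in cKO libraries, against 39.9, 36.9 and 37.3 RPKM in floxed libraries (log2 difference 0.23, SE 0.05, adjusted p = 0.139), where voom gave 0.23 (adjusted p = 0.0218, and between 0.0218 and 0.325 in all alternatives). Of the exon bases of Gas5, 17.8% are shared with other genes on the same strand, among them Snord47, Snord78 and Snord80. In both genes reads could be split or miscounted there. The row named Snhg7 was at 3.21, 0.682 and 2.61 RPKM in cKO libraries, against 7.95, 9.996 and 15.96 RPKM in floxed libraries (log2 difference -2.01, SE 0.39, adjusted p = 0.0759). It passed as lower in limma with the filter at 5 RPKM (adjusted p = 0.0495) and not in voom (adjusted p = 0.0503), and lay between 0.0495 and 0.209 in all alternatives. The row spans 139 bases, of which 91.4% are shared with Snora43, and rested on 2 to 48 reads per library.

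Ribosome biogenesis and division usually go together, and Mki67, the proliferation marker, was the 1 of 15 tested proliferation genes to pass. It fell to 20.8, 18.7 and 19.5 RPKM in cKO libraries, against 27.4, 29.3 and 27.9 RPKM in floxed libraries (log2 difference -0.50, adjusted p = 0.0141), and its call was lost without cKO replicate 2 or 3 or floxed replicate 2 or 3, where the log2 difference was -0.51 to -0.47 and the adjusted p 0.0609 to 0.0729. The list had a median of -0.11, with 0 higher and 1 lower in voom as well. Of its 15 tested genes, 13 lay below 0, against 57.3% of all tested genes. Before adjustment p was under 0.05 for 0 genes above 0 and for 4 below it, against 5.55% and 8.6% of all tested genes. In 5 of the 15 all cKO values lay under all floxed values, against 12.7% of tested genes. The part of proliferation in the differences of the ribosome biogenesis genes was not tested.

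**Figure D5:**
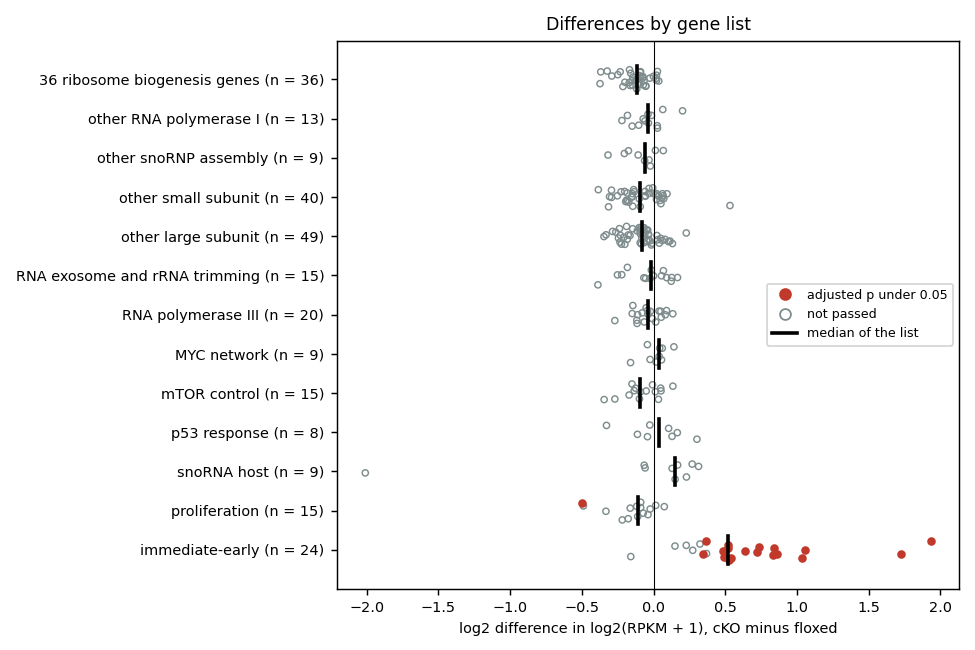
Log2 difference (cKO minus floxed, log2(RPKM + 1) scale) of every tested gene in the 36 ribosome biogenesis genes and 12 further lists, with 1 point per gene, filled where the adjusted p is under 0.05, and the list's median as a bar. The 36 genes sit in a band from -0.37 to 0.04 with 0 filled points, Mki67 is the only filled point among proliferation genes, and 18 of 24 immediate-early genes are filled to the right of 0.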

How the data were processed

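RNA-seq of 3 cKO and 3 floxed libraries was used, 1 library per label. Per the labels' protocols, TRIzol was used for RNA and a stranded mRNA kit for libraries, from 2 µg. Per the submitters' processing notes, the build was mm10 and the tools, with no role given, were edgeR 3.12.1, Subread 1.5.1, featureCounts and STAR 2.5.3a. The deposited values are RPKM, made by the authors per gene length and library depth. No source used here gives the strand setting, duplicate handling or annotation version.

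All 6 columns of values were mapped to samples. RPKM times gene length gave whole reads for 100% of values, within 0.001 reads. Limma 3.58.1 in R 4.3.3 (lmFit, eBayes with a trend) was run on log2(RPKM + 1), two-sided, on the 12731 genes that reached 1 RPKM in 3 or more libraries, and tested on simulated data. Levels are mean ± SD. Alternatives were a pseudocount of 0.1, other filters, voom on recovered reads, other scalings, a replicate block and leaving out each library. In each of 6 role groups the text names the genes with the smallest p (1 in groups of up to 4 genes, otherwise 3), the highest mean and the largest positive difference. In other lists it names passing genes, at most 2 others by p and at most 1 by mean. Of immediate-early genes and cell type markers only counts of passing genes are given, except that those of the ILC1 and NK list are named. The members and lists were chosen with earlier results of these data known. Nol6 and Gas5 were named after their values were seen, as were the snoRNAs. Symbols are those of the table, of which 21 are spreadsheet dates. Numbers of reads carry counting error, and reads without molecular identifiers are not independent molecules.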

Additional observations from a re-analysis of the deposited data

How the results depend on the processing

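Of the 36 genes, 0 passed in limma in 11 of the 13 alternatives. Dkc1, 1 gene, passed with the 5 RPKM filter and 4 genes with voom. The median stayed between -0.14 and -0.08 and the count below 0 between 28 and 34. Of the other pathway genes voom called 1 higher and 1 lower, and 0 passed elsewhere. Over all genes 83 were higher and 85 lower, against 110 and 73 with median-ratio scaling, 44 and 36 with no filter, 226 and 307 with voom and 37 and 23 with the replicate block. Leaving out 1 library gave 33 to 50 higher and 27 to 39 lower genes, fewer samples being fitted. Otherwise the cause was not tested.

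The sign turned for Ncl with quantile normalization (-0.021). Leaving out 1 library gave -0.034 (without floxed replicate 2) to 0.053 for Ncl, -0.0067 (without cKO replicate 2) to 0.054 for Polr1a, -0.034 (without floxed replicate 2) to 0.053 for Nop14, -0.079 (without cKO replicate 3) to 0.14 for Utp15, which was -0.013 without floxed replicate 2, and -0.081 to 0.0064 (without floxed replicate 3) for Myc, with 0 of them passing.

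Same-numbered libraries share only a number: their deviations correlated at -0.03, 0.01 and 0.04 over 12731 genes. With the replicate block Mki67 did not pass (adjusted p = 0.0876), while Snord91a did (adjusted p = 0.0405).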

Other observations

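Of the p53 response, which disturbed ribosome assembly is known to switch on, 8 of 11 listed genes were tested and 0 passed in limma, with a median log2 difference of 0.04. Before adjustment p was under 0.05 for 1 gene above 0 and for 1 below it. Voom called 0 higher and 1 lower. Trp53, the gene of p53 itself, was at 9.78, 9.52 and 8.85 RPKM in cKO libraries, against 11.1, 13.1 and 12.03 RPKM in floxed libraries. Its groups did not overlap (log2 difference -0.33, SE 0.08, adjusted p = 0.142), and voom gave -0.36 (adjusted p = 0.0347, and between 0.0347 and 0.318 in all alternatives). Mdm2, the p53 inhibitor and target, was at 28.3, 28.4 and 25.9 RPKM in cKO libraries, against 29.1, 28.8 and 31.6 RPKM in floxed libraries (log2 difference -0.11, adjusted p = 0.487). The p53 target Ccng1 was at 24.1, 22.2 and 23.4 RPKM in cKO libraries, against 21.1, 21.7 and 20.6 RPKM in floxed libraries (log2 difference 0.13, adjusted p = 0.352).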
